A study of Homo sapiens with 6 samples.

Results

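The 60 genes described here encode the kinases, kinetochore proteins, spindle motors and chromosome proteins that carry a human cell through mitosis. They were chosen by symbol, as written in the name column of the deposited table, and all 60 were found among its 20345 protein-coding genes, each in 1 row. RNA-seq was made from HEK 293FT cells, a fast-growing line from human embryonic kidney that carries SV40 large T antigen, which binds the RB family. The control group (GFP cells, 3 libraries) is titled HEK 293FTGFP and marked Vec, and the other group (CTRB1 cells, 3 libraries) is titled HEK 293FTGFP-CTRB1, so green fluorescent protein is named in both. CTRB1 encodes chymotrypsinogen B1, a pancreatic protease precursor. The labels give no dose, time, promoter or clone, and nothing in them states that each library is a culture of its own, so p-values measure the spread between these libraries, which may be technical.

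Mitosis begins when CDK1 bound to cyclin A or cyclin B is activated by CDC25 phosphatases. Polo-like and Aurora kinases then build the spindle, condensins compact the chromosomes, and kinetochores join centromeres to microtubules. The spindle assembly checkpoint holds back the anaphase-promoting complex until every kinetochore is attached, after which separase opens the sisters and the cell divides at the midbody. Most of these genes are transcribed late in the cell cycle under the MuvB complex, B-MYB and FOXM1, through a promoter element called the CHR, and are held down in resting cells by the DREAM complex.

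The libraries held 27514767 to 159616285 counts over the table, and every GFP library was deeper than every CTRB1 library. CTRB1 itself had 1, 0 and 5 counts in GFP cells against 22749, 22161 and 19345 in CTRB1 cells, as the labels have it. Of 11 HEK293 marker genes in the table, 10 were above an FPKM (reads scaled by gene length and library size, as the authors deposited them) of 0.46 in every library, and their summed FPKM was 417 to 456 in GFP and 402 to 421 in CTRB1 libraries. PROM1 was at or near 0. Among markers of other cell types, CD3E, HBB, KRT14, KRT1 and DSG3 had no count. The summed FPKM was 7.01 to 7.59 in GFP against 7.36 to 8.51 in CTRB1 libraries for 9 fibroblast markers, 0.11 to 0.148 against 0.0534 to 0.176 for 4 endothelial markers and 8.76 to 9.78 against 6.84 to 7.45 for 6 keratinocyte markers. COL1A1 and KRT10 made up most of the sums that were not near 0, and their part in any result was not tested.

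The CHR was found in most, not all, of the promoters searched, and in genes of either direction of change. Promoters of 300 bases, from 250 before to 50 after each RefSeq start (build GRCh38.p14), were found for 51 of the 60 genes, 65 promoters in all. The CHR was searched as TTTGAA and the binding motif of NF-Y as CCAAT, each on both strands. Of the 65 promoters 61.5% held a CHR and 70.8% a CCAAT, against 10.2% and 35.0% of the 14261 promoters of the genes tested here and 15.2% and 34.6% of all 35116 promoters in the RefSeq table. Both motifs together were in 47.7% of the 65 promoters and in 4.08% of those of tested genes. A match describes the letters in this window and not a bound site.

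Windows of 80 bases directly before the start are shown for 4 genes that were higher in CTRB1 cells (PLK1, PRC1, KIF18A and KIF11), 2 that were lower (MKI67 and ANLN) and 3 that passed no threshold (CCNB2, HMMR and CDC20), to show where the element lies in genes called in either direction or not at all. These 9 were picked because they hold a CHR, so their likeness comes from that choice. A start of CDK1 (called higher) and that of CEP55 (called lower), whose windows hold none, are shown last. Capitals mark CHR and CCAAT motifs on either strand, and motifs that touch or overlap run together. They lie at chr16:23678809-23678888 (plus strand) for PLK1, chr15:90994536-90994615 (minus) for PRC1, chr11:28108157-28108236 (minus) for KIF18A, chr10:92593050-92593129 (plus) for KIF11, chr10:128126424-128126503 (minus) for MKI67, chr7:36389782-36389861 (plus) for ANLN, chr15:59105066-59105145 (plus) for CCNB2, chr5:163460552-163460631 (plus) for HMMR, chr1:43358901-43358980 (plus) for CDC20, chr10:60778251-60778330 (plus) for CDK1 and chr10:93496532-93496611 (plus) for CEP55.
PLK1: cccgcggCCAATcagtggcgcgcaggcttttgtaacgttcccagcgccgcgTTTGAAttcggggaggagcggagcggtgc
PRC1: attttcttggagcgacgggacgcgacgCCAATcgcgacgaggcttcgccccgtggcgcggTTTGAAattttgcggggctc
KIF18A: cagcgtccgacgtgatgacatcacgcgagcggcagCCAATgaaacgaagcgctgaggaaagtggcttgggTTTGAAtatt
KIF11: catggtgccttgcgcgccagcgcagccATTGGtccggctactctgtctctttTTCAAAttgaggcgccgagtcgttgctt
MKI67: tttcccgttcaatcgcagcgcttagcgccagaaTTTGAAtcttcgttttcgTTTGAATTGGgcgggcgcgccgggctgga
ANLN: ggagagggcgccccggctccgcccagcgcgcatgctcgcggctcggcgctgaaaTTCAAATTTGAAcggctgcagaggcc
CCNB2: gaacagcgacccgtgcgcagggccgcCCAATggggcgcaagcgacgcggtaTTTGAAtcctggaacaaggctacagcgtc
HMMR: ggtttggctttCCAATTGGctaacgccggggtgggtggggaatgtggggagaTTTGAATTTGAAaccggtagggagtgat
CDC20: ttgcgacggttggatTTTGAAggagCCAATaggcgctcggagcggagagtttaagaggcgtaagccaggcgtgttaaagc
CDK1: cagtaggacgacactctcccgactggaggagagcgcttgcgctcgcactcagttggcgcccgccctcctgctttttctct
CEP55: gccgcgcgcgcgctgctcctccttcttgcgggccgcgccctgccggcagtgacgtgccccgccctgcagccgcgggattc

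The CHR began 29 bases before the start in PLK1 and CCNB2, 20 in PRC1, 10 in KIF18A, 28 in KIF11 and 65 in CDC20. At another start of CDK1, whose window is not shown, CHRs began 69 and 13 bases before. The windows of MKI67, ANLN and HMMR also held the CHR more than 1 time. By outcome of the comparison described next, 61.5% of the 26 promoters of genes called higher held a CHR, 57.1% of the 7 promoters of genes called lower and 62.5% of the 32 promoters of genes not called. Some genes have more than 1 promoter. Counted by gene, the shares were 78.9% of 19 called higher, 57.1% of 7 called lower and 72.0% of 25 not called, against 13.4% of tested genes. The differences between outcomes were not tested. Outside the 60 genes, 47.2% of 36 promoters of other spindle and cytokinesis genes and 4.35% of 46 promoters of G1/S and replication genes held one.

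**Figure D1:**
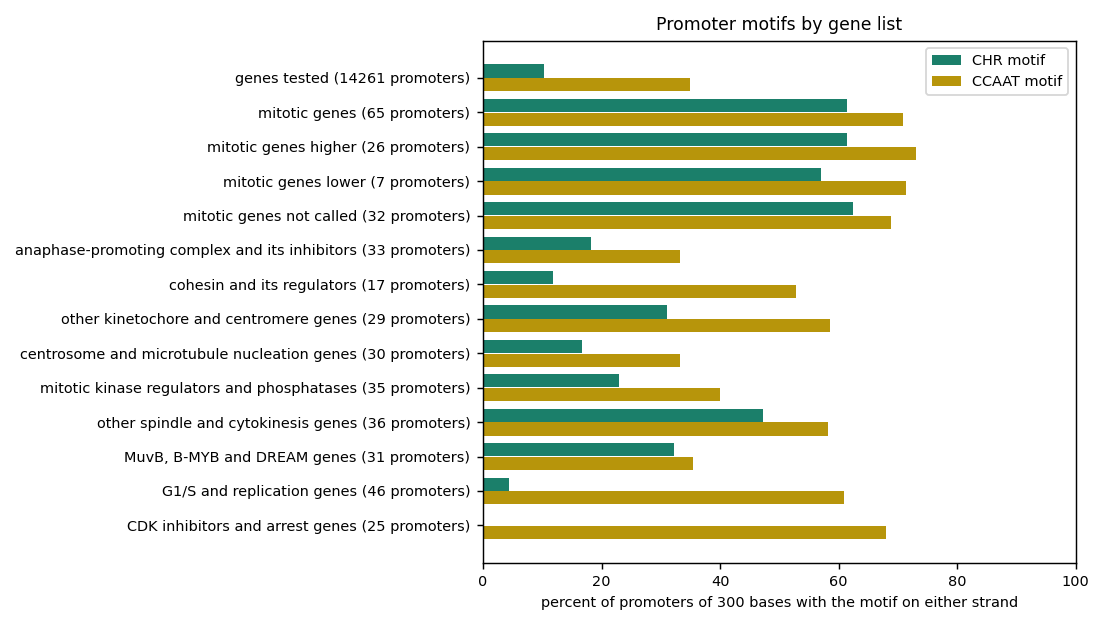
Percent of RefSeq promoters of 300 bases that hold a CHR motif (green) or a CCAAT motif (ochre) on either strand, for genes tested here, the 60 mitotic genes by outcome, and related lists. The CHR stands at 61.5% in the mitotic genes and at 10.2% in promoters of genes tested, while CCAAT is frequent in several lists.

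All 60 genes were well expressed. Their mean FPKM ranged from 7.83 to 126 in GFP cells with a median of 31.6, and from 8.52 to 138 in CTRB1 cells, and every one passed the filter on low values (an FPKM of at least 1 in at least 3 libraries) and a mean FPKM of at least 5. Per length, the most abundant transcripts in GFP cells were UBE2C (126 ± 0.927 FPKM, SD, n = 3), BUB3 (122 ± 0.25), CDK1 (108 ± 1.53), PTTG1 (98.8 ± 4.95) and AURKB (95.9 ± 1.44). PTTG1 and AURKB, neighbours in this order, lay within the spread of PTTG1. CENPC (7.83 ± 0.106 FPKM), KIF18A (8.12 ± 0.148) and KIF14 (9.21 ± 0.238) were the least abundant.

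Subunits of 1 complex had unequal transcript levels. In the chromosomal passenger complex, AURKB and BIRC5 stood at 95.9 and 74.1 FPKM in GFP cells, while INCENP and CDCA8 stood at 25.9 ± 2.52 and 21.9 ± 0.559 (SD, n = 3). Among condensin subunits SMC4 was at 75.6 FPKM and its partner SMC2 at 21.6, with NCAPD2, NCAPH and NCAPG at 39.3, 36.1 and 34.0. Exons of SMC4, NCAPG and NCAPD2 overlap a gene on the opposite strand, by 1561, 1631 and 486 bases. Whether counting used the strand is not given, so their levels may include reads of that gene. The NDC80 complex was closer together, with NUF2 at 28.1, SPC25 at 26.2, NDC80 at 21.7 and SPC24 at 17.9 FPKM.

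**Figure D2:**
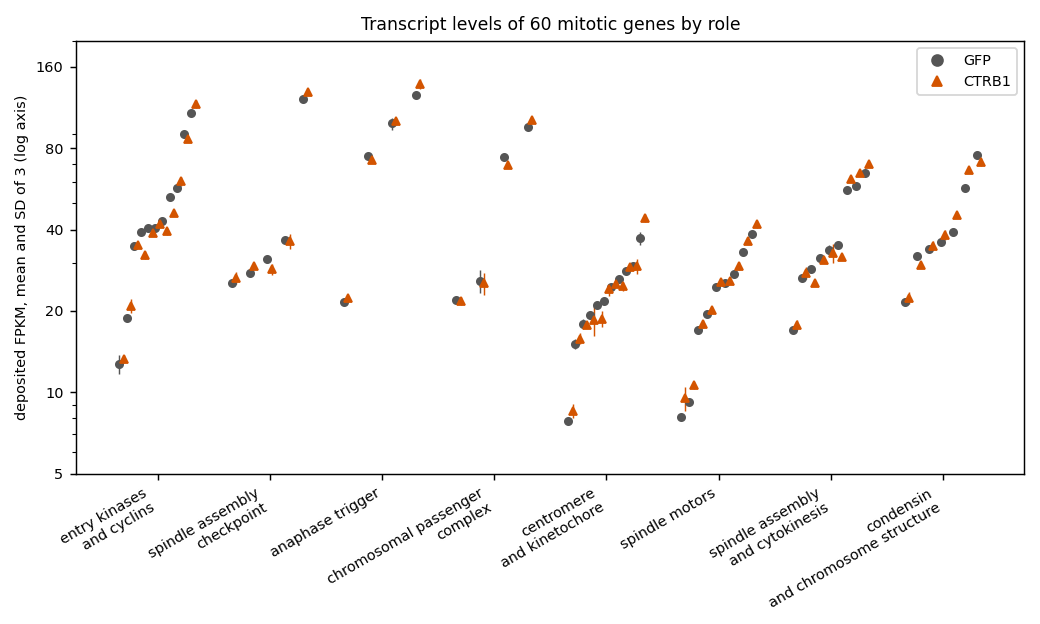
Deposited FPKM of the 60 genes on a log axis, by role, as mean and SD of the 3 GFP libraries (grey circles) and the 3 CTRB1 libraries (orange triangles). The pairs of symbols lie close together, from CENPC at 7.83 to UBE2C at 126 in GFP cells.

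In CTRB1 cells more of the mitotic genes rose than fell, all by small amounts. For each gene, counts in the CTRB1 libraries were compared with those in the GFP libraries by edgeR's quasi-likelihood test. P-values had Benjamini-Hochberg adjustment over 11961 genes, and 0.05 was the threshold for a call. Whether a difference between the groups comes from CTRB1 itself was not tested. Of the 60 genes 23 were called higher and 9 lower, 53.3% of them, where 37.4% of all genes tested were called, 18.6% higher and 18.9% lower. Highly expressed genes were called more often: with a mean FPKM of at least 5 required, 44.3% of all genes were called, and 26 higher and 9 lower among the 60. The median log2 change of the 60 genes was 0.064, against 0.003 over all genes tested, and it was 0.041 with offsets for transcript length and GC content. The largest change of a gene in size was 0.268. In 39 of the 60 genes (65.0%) the 3 libraries of a group all lay on 1 side of the other group, against 50.0% of all genes tested. All 23 genes called higher and 9 called lower were among them, so for a called gene this separation adds little to its call. With limma on log2(FPKM + 1), the counts of the 60 genes were 13 higher and 8 lower, and over all genes 1250 higher and 1942 lower, so that 39.2% of its calls were higher against 49.6% in edgeR. The authors' deposited table gave adjusted p-values under the threshold for 21 higher and 9 lower of the 60, of which 30 shared the direction called here.

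Together the 60 genes held 0.8319, 0.831 and 0.8302% of all counts in GFP cells, against 0.8617, 0.8571 and 0.8657% in CTRB1 cells. The groups did not overlap, at 0.831 ± 0.00086% against 0.8615 ± 0.00431% (SD, n = 3 each), with p = 0.1 in an exact two-sided permutation test, the smallest value that 3 against 3 libraries allow. In bulk RNA, a change in how many cells are in G2 or mitosis and a change in transcript per cell cannot be told apart.

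**Figure D3:**
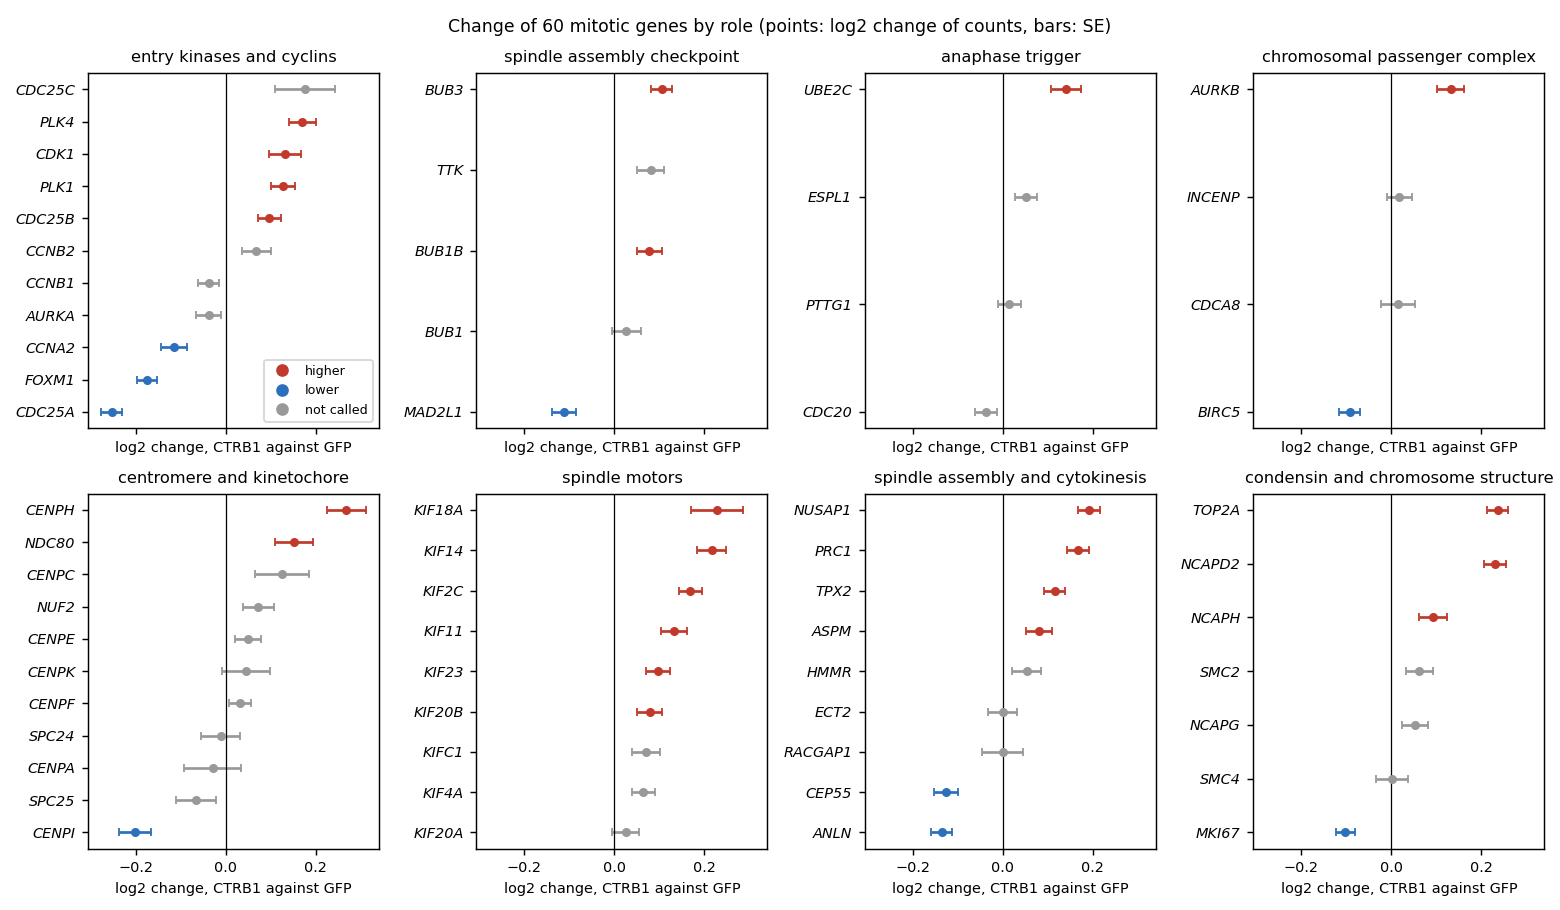
Log2 change in CTRB1 against GFP cells for each of the 60 genes, in 8 panels by role, with SE bars from the edgeR fit. Red marks genes called higher (23), blue genes called lower (9) and grey genes not called (28). No spindle motor lies on the lower side.

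Among the entry regulators, the CDC25 phosphatases that activate CDK1 divided. CDC25A, which acts at both G1/S and G2/M (ENSG00000164045; chromosome 3, positions 48198636 to 48229892 in the table's coordinates, whose build is not named), fell from 166, 162 and 164 CPM (counts scaled to library size) in GFP cells to 139, 135 and 139 in CTRB1 cells. The log2 difference was -0.25 ± 0.0229 (SE; edgeR adjusted p = 1.82e-05). CDC25B, a starter of mitotic entry, rose by 0.10 ± 0.0247 (SE; edgeR adjusted p = 0.0105), although its FPKM was 34.8 ± 1.32 against 35.0 ± 0.435 (SD, n = 3 each), and with limma on log2(FPKM + 1) its change was 0.0087 and not called (adjusted p = 0.88). CDC25C had a log2 change of 0.18 ± 0.0664 at only 26.3 CPM in GFP cells and did not pass (edgeR adjusted p = 0.0593).

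FOXM1, the transcription factor of late cell cycle genes, fell from 195, 200 and 198 to 175, 176 and 174 CPM. Its log2 change was -0.17 ± 0.0227 (SE; edgeR adjusted p = 0.000209), and the groups were far apart for their spread. CCNA2, which encodes the S and G2 cyclin A2, fell less, from 137, 138 and 144 to 132, 130 and 125 CPM (log2 change -0.11; edgeR adjusted p = 0.0103, and 0.061 without GFP replicate 3). The mitotic cyclin genes did not pass: CCNB1 had a log2 change of -0.04 and CCNB2 of 0.07.

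The kinases of entry rose or did not pass. PLK4, the master kinase of centriole duplication, went from 64.2, 66.3 and 64.2 to 72.9, 74.1 and 72.0 CPM, with every CTRB1 library above every GFP library (log2 change 0.17 ± 0.0297, SE; edgeR adjusted p = 0.00126). PLK1, the polo-like kinase of entry and spindle assembly, rose by 0.13 (edgeR adjusted p = 0.00381). With limma on log2(FPKM + 1) neither was called, PLK4 at 0.15 (adjusted p = 0.0507) and PLK1 at 0.08 (0.131). CDK1, the mitotic kinase itself, rose by 0.13 as well (edgeR adjusted p = 0.0145), but lost the call when CTRB1 replicate 3 (0.0514), GFP replicate 2 (0.0507) or GFP replicate 3 (0.0601) was left out. AURKA, the centrosomal Aurora kinase, had a log2 change of -0.04 (edgeR adjusted p = 0.316).

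**Figure D4:**
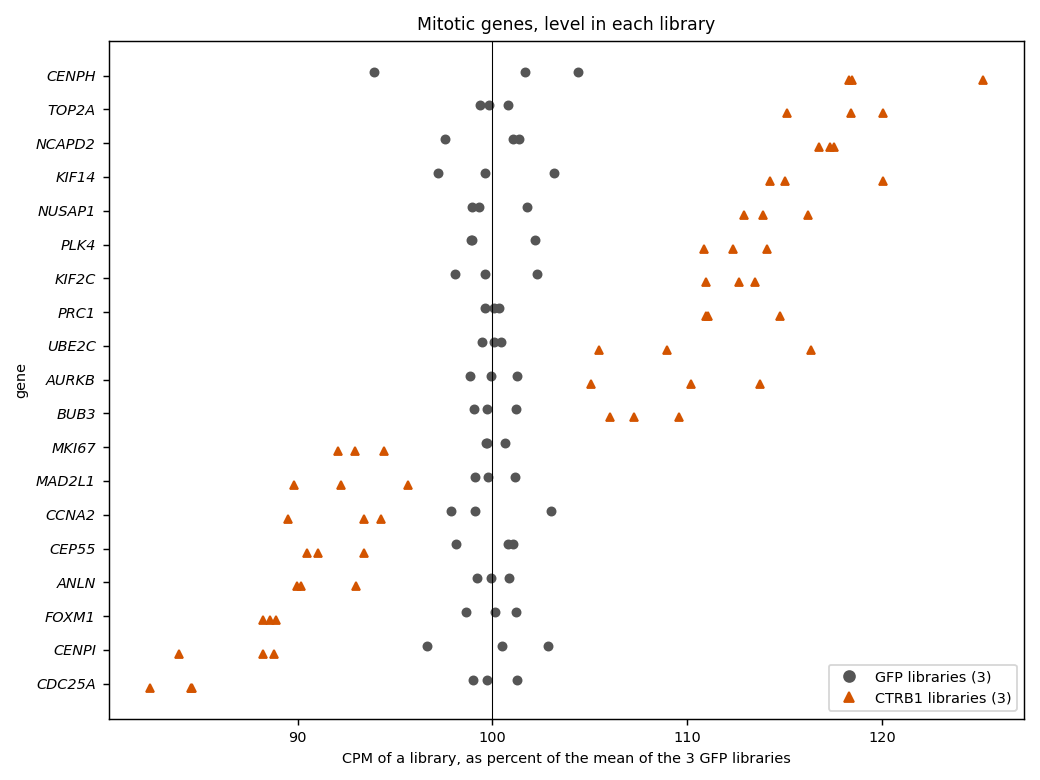
CPM of each library as percent of the mean of the 3 GFP libraries for the 19 genes given with all their values, GFP libraries as grey circles and CTRB1 libraries as orange triangles. They were picked from the 23 genes called higher and 9 called lower, in all of which the groups do not overlap. Their separation therefore follows from that choice. Over all genes tested the groups do not overlap in 50.0%.

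Checkpoint genes moved in both directions. BUB3, which brings BUB1 and BUBR1 to the kinetochore (ENSG00000154473; chromosome 10, positions 124913793 to 124924886), rose from 284, 286 and 290 to 304, 314 and 307 CPM (log2 change 0.11 ± 0.0235, SE; edgeR adjusted p = 0.00507). MAD2L1, whose product MAD2 inhibits CDC20, fell from 178, 181 and 177 to 171, 160 and 165 CPM (log2 change -0.11 ± 0.027, SE; edgeR adjusted p = 0.00829). The groups did not overlap for either gene, and neither was called by limma on log2(FPKM + 1), BUB3 at 0.07 (adjusted p = 0.0817) and MAD2L1 at -0.12 (0.0764). BUB1B, the BUBR1 gene, rose by 0.08 (edgeR adjusted p = 0.0443) and lost the call without CTRB1 replicate 2 (0.0943), CTRB1 replicate 3 (0.0981), GFP replicate 2 (0.157) and GFP replicate 3 (0.166). It was not called either by DESeq2 (adjusted p = 0.0629), with the replicate block (0.0609), without the filter (0.0684), in thinned counts (0.0759) or by limma (0.11). The checkpoint kinase genes TTK and BUB1 stood at 0.08 and 0.03 on the log2 scale, neither passing (edgeR adjusted p = 0.0527 and 0.54).

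Of the genes that trigger anaphase, 1 of 4 passed (25.0%), beside 37.4% of all genes tested. UBE2C, the ubiquitin-conjugating enzyme of the anaphase-promoting complex (ENSG00000175063; chromosome 20, positions 44441215 to 44445596), rose from 131, 130 and 132 to 138, 152 and 143 CPM. Its CTRB1 libraries spread more widely than its GFP libraries but stayed above them (log2 change 0.14 ± 0.0327, SE; edgeR adjusted p = 0.00637). CDC20, the activator of that complex, had a log2 change of -0.04, PTTG1 (securin) of 0.01 and ESPL1 (separase) of 0.05.

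The chromosomal passenger complex, which corrects wrong attachments, had 1 gene that rose and 1 that fell among 4. That is 50.0%, beside 37.4% of all genes tested. AURKB, its kinase (ENSG00000178999; chromosome 17, positions 8108056 to 8113918), rose from 113, 116 and 115 to 121, 126 and 131 CPM (log2 change 0.13 ± 0.0302, SE; edgeR adjusted p = 0.00596). BIRC5, which encodes survivin, fell by 0.09 on the log2 scale (edgeR adjusted p = 0.0106). INCENP and CDCA8 (borealin) both had log2 changes of 0.02 and were not called.

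Among 11 centromere and kinetochore genes 2 rose and 1 fell, 27.3% of them, beside 37.4% of all genes tested. The larger rise and the only fall called were both in the constitutive centromere network. CENPH (ENSG00000153044; chromosome 5, positions 68485375 to 68506184) rose from 54.8, 61.0 and 59.4 to 69.1, 69.2 and 73.1 CPM, the largest change of the 60 genes (log2 change 0.27 ± 0.043, SE; edgeR adjusted p = 0.000758). CENPI, whose product binds in the same subcomplex, fell from 71.8, 67.5 and 70.2 to 61.6, 58.6 and 62.0 CPM (log2 change -0.20 ± 0.036, SE; edgeR adjusted p = 0.00145). Neither group of libraries overlapped the other. CENPK, the third member of that subcomplex here, was at 0.05 and not called.

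NDC80, the microtubule-binding subunit of the outer kinetochore, rose by 0.15 (edgeR adjusted p = 0.0161, and 0.0565 without GFP replicate 3 and 0.0631 in thinned counts). Its partners NUF2, SPC24 and SPC25 stood at 0.07, -0.01 and -0.07 on the log2 scale, none passing. The centromeric histone gene CENPA (-0.03), the DNA-binding CENPC (0.13), the kinesin CENPE (0.05) and the large coiled-coil protein gene CENPF (0.03) did not pass either.

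Spindle motors were the role with calls in only 1 direction and more than 1 call: 6 of 9 rose, none fell, and the median log2 change was 0.097. Their share called, 66.7%, was that of spindle assembly and cytokinesis genes too, and entry regulators had 63.6%. Of all genes tested 37.4% were called and 18.6% called higher. Whether the motors differ from the other roles was not tested. KIF14, a kinesin of the midbody (ENSG00000118193; chromosome 1, positions 200520628 to 200589862), rose from 75.5, 77.4 and 80.2 to 89.4, 88.7 and 93.2 CPM (log2 change 0.22 ± 0.0325, SE; edgeR adjusted p = 0.000506). KIF2C, the microtubule depolymerase MCAK, rose from 102, 105 and 101 to 117, 116 and 114 CPM (log2 change 0.17 ± 0.0262, SE; edgeR adjusted p = 0.000613). The CTRB1 libraries of both genes lay above all GFP libraries. KIF18A, which dampens chromosome oscillations, rose by 0.23 (edgeR adjusted p = 0.0109), and KIF11, the motor Eg5 that separates spindle poles, by 0.13 (edgeR adjusted p = 0.00433).

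The remaining motors changed less. KIF23, a centralspindlin subunit, rose by 0.10 (edgeR adjusted p = 0.0162), with 0.0501 without CTRB1 replicate 3 and 0.0695 without GFP replicate 1. KIF20B rose by 0.08 (edgeR adjusted p = 0.0406) and lost the call without CTRB1 replicate 3 (0.137), GFP replicate 2 (0.154) and GFP replicate 3 (0.137). With length and GC offsets it stood at 0.04 (edgeR adjusted p = 0.297, and 0.359 with the replicate block), and it was not called by DESeq2 (0.0504), without the filter (0.0625), in thinned counts (0.0564) or by limma (0.208). KIFC1 (log2 change 0.07), KIF4A (0.06) and KIF20A (0.03) were not called. With limma on log2(FPKM + 1) the calls among motors numbered 3, and KIF18A (adjusted p = 0.0565) and KIF23 (0.0845) were not among them.

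Of 9 genes of spindle assembly and cytokinesis 4 rose, 2 fell and 3 did not pass. NUSAP1, a microtubule bundler (ENSG00000137804; chromosome 15, positions 41624892 to 41673248), rose from 134, 133 and 137 to 152, 153 and 156 CPM (log2 change 0.19 ± 0.0237, SE; edgeR adjusted p = 0.000149). PRC1, which crosslinks the central spindle, rose from 204, 205 and 203 to 227, 234 and 226 CPM (log2 change 0.17 ± 0.024, SE; edgeR adjusted p = 0.000394). For NUSAP1 62.9% and for PRC1 62.2% of the 100-base windows of the transcript also lie in another gene annotated on the same strand, so how their reads were counted is uncertain. TPX2, the activator of Aurora A, rose by 0.12 (edgeR adjusted p = 0.00322). ASPM, of spindle poles, rose by 0.08 (edgeR adjusted p = 0.0444), a call that was lost without GFP replicate 1 (0.131), GFP replicate 2 (0.121), GFP replicate 3 (0.0846), CTRB1 replicate 1 (0.0935) and CTRB1 replicate 3 (0.13). With length and GC offsets its change was 0.02 (edgeR adjusted p = 0.395, and 0.353 with the replicate block), and it was not called without the expression filter (0.0676) or by limma (0.294).

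ANLN, the gene of the cleavage furrow scaffold anillin, fell from 153, 151 and 152 to 137, 137 and 141 CPM (log2 change -0.14 ± 0.0233, SE; edgeR adjusted p = 0.00115). CEP55, which recruits the abscission machinery to the midbody, fell from 105, 102 and 105 to 97.3, 94.9 and 94.3 CPM (log2 change -0.13 ± 0.0265, SE; edgeR adjusted p = 0.00379). In neither gene did the groups overlap. ECT2 and RACGAP1, the RhoA activator and its centralspindlin partner, differed by less than their SE, at 137 against 136 and 111 against 111 CPM, and HMMR, of spindle poles, had a log2 change of 0.05 (edgeR adjusted p = 0.222).

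Among chromosome structure genes, the proliferation markers TOP2A and MKI67 went in opposite directions. TOP2A, the topoisomerase that untangles sister chromatids (ENSG00000131747; chromosome 17, positions 38544768 to 38574202), rose from 371, 375 and 370 to 447, 428 and 440 CPM (log2 change 0.24 ± 0.0231, SE; edgeR adjusted p = 2.91e-05). MKI67, which encodes the Ki-67 antigen that coats mitotic chromosomes (chromosome 10, positions 129894923 to 129924649), fell from 467, 471 and 466 to 435, 442 and 431 CPM (log2 change -0.10 ± 0.0209, SE; edgeR adjusted p = 0.00328). Each pair of groups was separate.

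Of the condensin subunits NCAPD2 changed most, from 237, 236 and 228 to 273, 274 and 275 CPM (log2 change 0.23 ± 0.0243, SE; edgeR adjusted p = 5.15e-05). NCAPH, the kleisin of condensin I, rose by 0.09 (edgeR adjusted p = 0.0339) and was not called without GFP replicate 1 (0.0848), GFP replicate 2 (0.126), CTRB1 replicate 1 (0.089) and CTRB1 replicate 2 (0.0897). The edgeR call was also lost with the replicate block (adjusted p = 0.0507), without the filter (0.0524) and in thinned counts, where the change was 0.06 (0.173), and limma did not call it (0.167). NCAPG was at 0.05 and SMC2 at 0.06, neither called. SMC4 was at 370 against 371 CPM, while its FPKM was 75.6 ± 2.36 against 71.0 ± 2.39 (SD, n = 3 each).

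Ratios of counts between genes of the same library do not depend on library scaling. Pairs were chosen after their values were seen, so they are given without a test. TOP2A counts per MKI67 count were 0.795, 0.796 and 0.792 in GFP libraries and 1.03, 0.969 and 1.02 in CTRB1 libraries. CENPH per CENPI was 0.764, 0.904 and 0.846 against 1.12, 1.18 and 1.18. In both pairs every CTRB1 library lay above every GFP library. Of 10 pairs computed 9 were separate in this way, and KIF11 per KIFC1 overlapped, at 3.09, 2.93 and 2.93 against 3.12, 3.0 and 3.23. Many pairs set a gene called higher over one called lower, so their separation follows from that choice. Single genes were separate in 50.0% of all genes tested, and the share for pairs in general was not computed. The shift was small for NDC80 per NUF2 (0.875 against 0.924) and CCNB2 per CCNB1 (0.34 against 0.365). The ratio of CDC25B to CDC25A was 0.754 ± 0.01 against 0.962 ± 0.0315, and that of AURKB to BIRC5 was 0.531 ± 0.00983 against 0.62 ± 0.0172 (SD, n = 3 each).

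Of the 23 genes called higher, 16 stayed called when each library was left out in turn, and of the 9 called lower, 8 did. Under all 16 alternatives 11 of the higher and 7 of the lower genes were called in the same direction. None of the 32 called genes changed sign under any of them. With every library thinned to the depth of the shallowest, an alternative added after the data were seen, 20 were called higher and 9 lower.

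Other genes of the same machinery were called in both directions, in shares from 15.8% of the anaphase-promoting complex list to 50.0% of the centrosome list, beside 37.4% of all genes tested. Of 34 other spindle and cytokinesis genes 10 rose and 4 fell, with a median log2 change of 0.026. The total of 14 fell to 9 without GFP replicate 1 and 7 without GFP replicate 3. In these fits the share of all genes called fell as well, from 37.4% to 28.3% and 27.9%. CKAP5, a microtubule polymerase, rose by 0.23, the kinesin KIF15 by 0.33 and the citron kinase gene CIT by 0.23 (edgeR adjusted p = 4.71e-05, 0.00018 and 0.00022). Of 26 centrosome and microtubule nucleation genes 10 rose and 3 fell (median 0.093), led by the augmin subunits HAUS4 (log2 change 0.48) and HAUS6 (-0.20) and by CDK5RAP2, of the centrosome (0.15).

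Kinetochore genes beyond the 60 divided evenly, with 7 higher and 7 lower of 30 (median 0.024). The total of 14 was 9 without GFP replicate 1, where 28.3% of all genes were called. KNTC1 and ZW10, partners in the complex that brings dynein to kinetochores, differed by 0.31 and -0.20 (log2; edgeR adjusted p = 0.00022 and 0.00295), and NSL1, of the MIS12 complex, rose by 0.24. Of 16 cohesin genes 3 rose and 4 fell (median 0.035): STAG2, a core subunit, rose by 0.17, and the S-phase cohesion genes ESCO2 and CDCA5 had log2 changes of -0.28 and -0.17. The anaphase-promoting complex had few calls, 1 higher and 2 lower of 19 (median -0.044), namely ANAPC16 (0.15), ANAPC13 (-0.12) and TRIP13, the ATPase that remodels MAD2 (-0.19). Of 29 kinase regulators and phosphatases 3 rose and 4 fell (median 0.029). The called genes included AJUBA (0.52), an activator of Aurora A, NEK9 (0.18) and PPP2R2A (-0.13), a subunit of the phosphatase PP2A. The total of 7 was 4 without GFP replicate 3, where 27.9% of all genes were called.

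Of 19 MuvB, B-MYB and DREAM genes 3 rose and 5 fell (median -0.019): RBL2, the p130 pocket protein of DREAM, rose by 0.28, and the activating E2F genes E2F1 and E2F3 differed by -0.20 and -0.19 (log2; edgeR adjusted p = 6.14e-05, 0.000451 and 0.000373). Of 39 G1/S and replication genes 4 rose and 21 fell, with a median of -0.123 beside 0.064 for the 60 mitotic genes, and the difference between these lists was not tested. Cyclin D2 gene CCND2 rose by 0.45, while CLSPN, of the replication checkpoint, and RRM2, of nucleotide synthesis, had log2 changes of -0.35 and -0.23. Of 18 CDK inhibitor and arrest genes tested 6 rose and 3 fell (median 0.038), among them the stress-induced SESN2 (0.93) and GADD45B (-0.41).

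**Figure D5:**
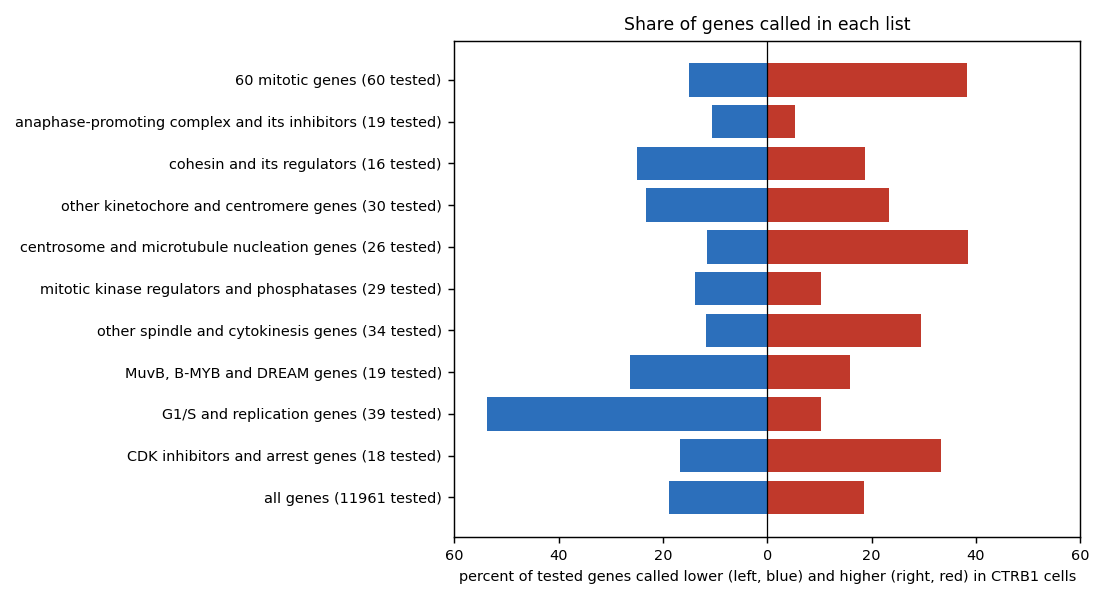
Percent of the tested genes of each list called lower (blue, to the left) and higher (red, to the right) in CTRB1 cells by the edgeR test. The 60 mitotic genes stand at 15.0% lower and 38.3% higher, all genes at 18.9% and 18.6%, and the G1/S list lies mostly on the lower side.

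Across the 60 genes Spearman's rho of the log2 change was 0.04 with transcript length and -0.13 with GC content, against 0.08 and -0.03 across 11691 tested genes with a GENCODE transcript. These describe genes measured in the same 6 libraries, which are not independent of each other.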

How the data were processed

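One deposited table with all 6 samples was used. Its whole-number columns are read counts per gene, not normalized, per the file headers. FPKM and TPM are the authors' normalized values, per the file headers, and TPM was not used. The authors also deposited their own comparison as log2 fold change, p-value and adjusted p-value columns, and their tool is not named there. Tools listed in the submitters' processing notes are HTSeq 0.6.1, HISAT2 2.2.1 and cutadapt 1.9.1, beside the mouse build GRCm38.p5, although all identifiers are human. The build of the coordinates and the use of strand in counting are not given in the sources used here. In GENCODE v29, exons of 19 of the 60 genes overlap a gene on the opposite strand, by up to 1631 bases (NCAPG), so such reads may be mixed. BUB1B, SPC25 and KIF4A share 5.41%, 3.03% and 2.12% of their 100-base windows with another gene.

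Counts were tested with edgeR 4.0.16 in R 4.3.3 (TMM factors 0.9964 to 1.0036, quasi-likelihood F test, no covariate, both groups in 1 model) across all 11961 genes with FPKM of at least 1 in at least 3 libraries, with Benjamini-Hochberg adjustment and a threshold of 0.05. SE was taken as the size of the log2 change over root F. CPM uses TMM-scaled library sizes. Total counts were 52571457, 64859210 and 159616285 in GFP and 31557364, 32522018 and 27514767 in CTRB1 libraries, so that a floor of 3 counts is 0.0188 to 0.109 CPM, for counting error only. Alternatives were DESeq2 1.42.0, its size factors used in edgeR, either no filter or a stricter one (mean FPKM of at least 5), a replicate block, offsets smoothed on GENCODE transcript length and GC content, with and without that block, limma 3.58.1 on log2(FPKM + 1) and log2(FPKM + 0.1), and leaving out each library. The members, roles and lists were chosen with earlier results of these data known. Values in every library are given for up to 8 called genes in each direction by smallest adjusted p and for the gene with the smallest p of each role. Up to 3 called genes of each list are named by smallest adjusted p. UHRF1, NEFL and PECAM1 were not analysed here. The summed level of the blood cell markers and a gene of the arrest list that the rule would name are not reported here.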

Additional observations from a re-analysis of the deposited data

How the results depend on the processing

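The labels do not say whether the replicate numbers pair the libraries. Deviations of same-numbered libraries from their group means correlated at -0.077, -0.078 and -0.134 across 11961 genes. Those of differently numbered libraries correlated at -0.093 to 0.197. Deviations within a group are tied to each other, so these values cannot decide whether libraries are paired. With the replicate block 22 of the 60 genes were called higher and 9 lower, and the difference in the share of counts was 0.0305 percentage points (exact sign-flip permutation p = 0.25, the smallest that 3 pairs allow). DESeq2 called 22 and 9, DESeq2 size factors in edgeR 23 and 9, and no expression filter 19 and 9. Leaving out 1 library gave 18 to 23 higher and 8 to 9 lower, and 4 to 9, 9 to 14 and 7 to 14 calls among kinase regulators, other kinetochore genes and other spindle genes. Over all genes these fits called 27.9% to 36.7%, against 37.4% with all libraries.

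Both limma fits on FPKM called 13 of the 60 genes and 1250 of all genes higher, with 4 calls among entry regulators, 0 in the checkpoint, 3 among motors, 5 in the anaphase-promoting complex list, 4 in cohesin and 9 among other spindle genes. Counts thinned to equal depth also gave 5 in the anaphase-promoting complex list. The median change of the 60 genes was 0.076 with a mean FPKM of at least 5, 0.041 with length and GC offsets, 0.04 with these and the replicate block, and 0.047 and 0.048 in the limma fits. The cause of these shifts was not tested.

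Genes that changed sign were all uncalled in each fit concerned. Most were near 0, but SMC4 reached -0.09 in both limma fits (limma adjusted p = 0.1 and 0.101), the size of some changes called by edgeR. Without an expression filter SMC4 was at -0.0056, and with a mean FPKM of at least 5 ECT2, RACGAP1 and SPC24 were at 0.01, 0.01 and 0.00071. With length and GC offsets SMC4, CENPF, CENPE, RACGAP1 and SPC24 were at -0.03, -0.01, -0.0028, 0.0089 and 0.0041, and with the replicate block added at -0.02, -0.01, -0.0024, 0.0068 and 0.0055. In limma with a pseudocount of 1 SMC4, CENPK, CDCA8, INCENP and BUB1 were at -0.09, -0.01, -0.0011, -0.03 and -0.0084, and with 0.1 at -0.09, -0.01, -0.0012, -0.03 and -0.0087. Thinned counts put CENPA, CDCA8, INCENP, RACGAP1 and PTTG1 at 0.02, -0.007, -0.0028, 0.0064 and -0.01. Leaving out 1 library gave -0.01 to 0.06 for BUB1, -0.0063 to 0.05 for CDCA8, -0.09 to 0.03 for CENPA, -0.0055 to 0.11 for CENPK, -0.02 to 0.03 for ECT2, -0.06 to 0.05 for RACGAP1, -0.03 to 0.04 for SMC4 and -0.03 to 0.02 for SPC24.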
